A study of Mus musculus with 23 samples.

Results

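The comparison described here is that of hippocampi from wild-type (WT) mice infused with an inhibitor of stearoyl-CoA desaturase (WT-S, n = 3) with hippocampi from WT mice infused with vehicle alone (WT-D, n = 4), over all genes of the count table. These are 7 of the 23 libraries of the series, chosen by their labels alone and not by any measured value. All were WT mice of a mixed C57BL/6J x 129S1 background, 10 months old at dissection and carrying no transgene. According to the study's methods they were female. Both groups had a cannula placed in the brain and an osmotic pump under the back skin, which delivered fluid to the lateral ventricles for 28 days. The pumps of WT-S held the inhibitor (SCDi) at 80 µM in artificial cerebrospinal fluid with 0.8% DMSO, and those of WT-D held the same fluid with 0.8% DMSO only. There was no unoperated group of the same age, so effects of the surgery or of DMSO are shared by both groups. Each library is 1 mouse, and the p-values below measure the spread between these mice.

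Stearoyl-CoA desaturases (SCDs) introduce a double bond into saturated fatty acids and so supply the monounsaturated fatty acids of membranes, triglycerides and cholesterol esters. The inhibitor acts on the enzyme and not on its transcript, but cells can answer a change in fatty acid saturation through lipid-sensing transcription factors such as the sterol regulatory element-binding proteins, the liver X receptors and the PPARs. Saturated fatty acids can also engage the unfolded protein response and activate microglia, the immune cells of brain tissue. The comparison in WT mice asks what the infusion of the inhibitor does to the hippocampal transcriptome when no disease transgene is present.

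The libraries held 12992547 to 13860302 gene counts in WT-S and 14901528 to 17575615 in WT-D, and 23123 to 23891 genes had a count. Marker genes of hippocampal subfields were read in all libraries, with 14 of 14 passing the filter on low counts. These included Prox1 of dentate granule cells and Wfs1 and Fibcd1 of CA1 pyramidal cells, and their CPM (counts scaled to a common library size) summed to 1073 to 1156 per library. Markers of neocortex summed to 130 to 195 CPM and those of thalamus to 40.6 to 53.5 CPM in WT-D and 46.5 to 54.8 CPM in WT-S. One library stood apart. In WT-S replicate 2 the choroid plexus list of 12 genes summed to 786 CPM, against 219 to 246 CPM in the other 6 libraries. Ttr, the transthyretin of choroid plexus epithelium, was at 305 CPM there and at 3.42 to 9.96 CPM elsewhere. The most abundant gene of the list was Enpp2, with a mean of 219 CPM over both groups, so the sums do not follow Ttr alone. The first principal component, with 28.5% of the variance, placed WT-D replicates 1 and 2 and WT-S replicate 1 on 1 side and the other 4 libraries on the other, and so did not separate the treatments.

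**Figure D1:**
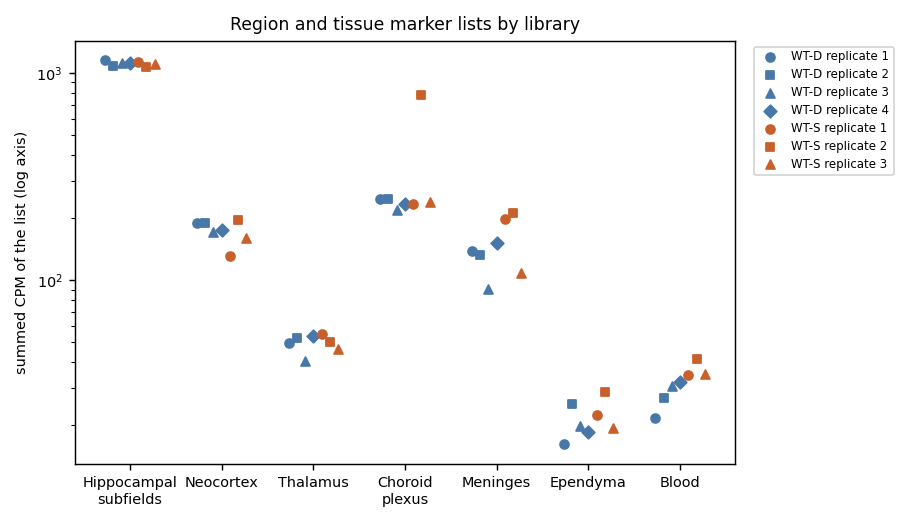
Summed CPM (log axis) of 7 lists of region and tissue markers in each of the 7 libraries, blue for WT-D and orange for WT-S, with a symbol for each replicate. The choroid plexus list stands at 786 CPM in WT-S replicate 2 and at 219 to 246 CPM in the other libraries, while the hippocampal list lies between 1073 and 1156 CPM in all.

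No gene differed between WT-S and WT-D after correction for multiple testing. Of 15724 genes that passed the filter, the quasi-likelihood test of edgeR called 0 (0%), with 0.981 as the smallest p after Benjamini-Hochberg adjustment and 0.05 as the threshold. The DESeq2 likelihood ratio test also called 0, with a smallest adjusted p of 0.0564, shared by B2m and Spp1. Before adjustment 538 genes (3.42% of those tested) were under 0.05, 322 of them higher (2.05%) and 216 lower (1.37%) in WT-S. At an unadjusted p under 0.01, the threshold used in the study, there were 59 genes (0.375%), 43 higher (0.273%) and 16 lower (0.102%). If nothing differed, a share of genes equal to each threshold would be expected. The shares of 3.42% and 0.375% were both below it. The study itself reported fewer genes for this pair, with another normalization and a likelihood ratio test. Here the DESeq2 size factors gave 56 genes at an unadjusted p under 0.01, and the DESeq2 likelihood ratio test gave 50. Why the study's count was lower was not tested. With neighbouring animal numbers as a block the count of 59 genes became 103. It also moved with single libraries, to 39 without WT-D replicate 3, 110 without WT-D replicate 4, 106 without WT-S replicate 1 and 110 without WT-S replicate 3. Genes whose values did not overlap between the groups numbered 460 higher (2.93%) and 311 lower (1.98%).

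The limits on a difference were narrow for most genes. The median absolute log2 fold change was 0.08, and the median half-width of the 95% interval was 0.23 on the log2 scale. The whole interval lay within a 1.5-fold change in either direction for 75.8% of genes and within 2-fold for 91.1%. Precision followed the level of expression. Among the 2297 genes at 100 CPM or more, 99.1% had intervals within 1.5-fold. Among the 4564 genes between 1 and 10 CPM it was 46.1%. Below 1 CPM, 0 of 1126 genes had an interval within 1.5-fold and 33.9% had one within 2-fold, so moderate differences in such genes were not detectable at this depth.

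The target family and the fatty acid desaturases lay close to their vehicle levels. Scd1, which like its paralogs forms the delta-9 double bond, was at 154, 168, 147 and 160 CPM in WT-D and at 137, 169 and 150 CPM in WT-S. The ranges overlapped, with a log2 fold change of -0.05 (SE 0.08, 95% interval -0.22 to 0.12). Scd2, the main isoform of brain, was at 1443, 1485, 1389 and 1468 CPM in WT-D and at 1311, 1544 and 1435 CPM in WT-S. Its log2 fold change was -0.02 (SE 0.06, interval -0.16 to 0.12), and WT-S held both the lowest and the highest library. Scd3 was read at 2.56 to 4.70 CPM over the 7 libraries, with a wider interval of -0.56 to 0.39 around -0.08. Scd4 had 32 counts in all 7 libraries together and was not tested. These 4 genes are neighbours on chromosome 19 of GRCm38, from 44203269 (Scd3) to 44407879 (Scd1), and reads that fit more than 1 of them were not counted.

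The FADS family, of which Fads1 and Fads2 make polyunsaturated fatty acids, was equally close. Log2 fold changes were 0.07 for Fads1 (SE 0.08), 0.09 for Fads2 (SE 0.09), -0.01 for Fads3 (SE 0.08) and -0.13 for Fads6 (SE 0.09). All 7 tested desaturases had intervals within 1.5-fold, 0 of 7 had an unadjusted p under 0.05, and the list's median log2 fold change was -0.02 beside 0.00167 over all genes tested.

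Beyond the desaturases, 5 further lists covered fatty acid synthesis, cholesterol synthesis, liver X receptor targets, lipid droplets and fatty acid oxidation. Over all 6 lipid lists 117 genes were tested, 69 higher and 48 lower in WT-S, with a median log2 fold change of 0.02. At an unadjusted p under 0.05 there were 2 higher and 2 lower genes, and 0 were called. Of all tested genes 2.05% were higher and 1.37% lower at that threshold, so these counts are near the background. Intervals lay within 1.5-fold for 103 of the 117 and within 2-fold for all 117. Elovl6, the elongase that turns palmitate into stearate, a substrate of SCD, was at 88.1, 74.8, 75.5 and 74.5 CPM in WT-D and at 74.0, 66.8 and 68.5 CPM in WT-S. All 3 WT-S values were below all 4 of WT-D, by a small margin (log2 fold change -0.17, SE 0.07, unadjusted p 0.0455, adjusted p 0.981, edgeR). Thrsp, a lipogenic cofactor, was on the other side at 27.6 to 31.4 CPM in WT-D and 32.1 to 36.2 CPM in WT-S (0.17, SE 0.08, unadjusted p 0.0439). Fabp3, a fatty acid-binding protein, had a log2 fold change of 0.26 (SE 0.10) and Abca7, a lipid transporter, one of -0.22 (SE 0.10), each with overlapping groups.

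**Figure D2:**
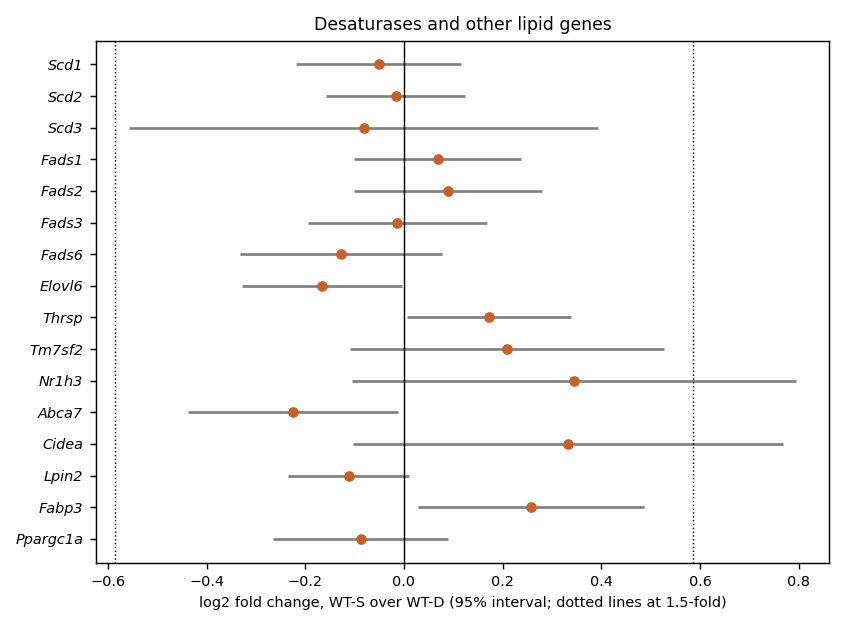
Log2 fold change of WT-S over WT-D with its 95% interval for the 7 tested desaturases and for genes of smallest p in the other lipid lists, with dotted lines at 1.5-fold. The desaturases all lie within the dotted lines, from -0.13 for Fads6 to 0.09 for Fads2, and intervals that leave 0 out are those of Elovl6, Thrsp, Abca7 and Fabp3.

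Of 25 tested genes of cholesterol synthesis 0 had an unadjusted p under 0.05, and their median log2 fold change was 0.03. That threshold was also passed by 0 of 27 genes of the unfolded protein response, whose median log2 fold change was 0.00171 and whose range was -0.14 to 0.18. Of all tested genes 3.42% passed that threshold, so a count of 0 in lists of this size says little. Among 14 genes of oxidative stress, Gsta4, a glutathione transferase that detoxifies products of lipid peroxidation, was at 43.2 to 46.7 CPM in WT-D and 48.4 to 54.4 CPM in WT-S. The groups did not overlap (0.19, SE 0.07, unadjusted p 0.0143).

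Genes of MHC class I antigen presentation all had values of the same direction, as had those of 4 smaller lists (meninges, choroid plexus, blood and cytokines). Class I molecules consist of a heavy chain, encoded by the H2 genes, and the light chain B2m, and present peptides that the TAP transporter brings into the endoplasmic reticulum. All 14 tested genes of the list had a positive log2 fold change, where 50.6% of all tested genes had one. Their median was 0.35, and 5 of 14 had an unadjusted p under 0.05 in that direction (2.05% of all genes). None of these 5 was called. They are named here after their values were seen. In the fit over all 15 libraries of 10 months, whose spread includes the 3xTg mice, 0 of 14 had an unadjusted p under 0.05. The number was 3 of 14 without any 1 of WT-D replicate 2, WT-D replicate 4, WT-S replicate 1 or WT-S replicate 2, and 3 with a length and GC trend removed.

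B2m had the smallest p-value of all genes. It was at 68.8, 66.4, 66.1 and 73.3 CPM in WT-D and at 93.1, 88.8 and 81.5 CPM in WT-S. The lowest WT-S library was above the highest WT-D library, and the means were 68.7 ± 3.30 (SD, n = 4) and 87.8 ± 5.83 CPM (SD, n = 3). The log2 fold change was 0.35 (SE 0.06, 95% interval 0.21 to 0.49, unadjusted p 0.000204, adjusted p 0.981 by edgeR), or 1.28-fold. H2-K1, a classical heavy chain, was at 24.7, 24.1, 23.7 and 25.0 CPM in WT-D and at 30.9, 31.2 and 26.5 CPM in WT-S. Again all WT-S libraries were above all of WT-D (0.28, SE 0.08, unadjusted p 0.00418). H2-D1, the second classical heavy chain of these libraries, was at 27.0, 24.3, 21.5 and 29.2 CPM against 29.9, 35.7 and 31.5 CPM. The groups nearly touched (0.34, SE 0.11, unadjusted p 0.00927). Tap1, a TAP subunit, was at 2.47 to 3.32 CPM in WT-D, while WT-S replicates 1 and 3 were at 4.89 and 5.27 CPM and replicate 2 at 2.66 CPM (0.54, SE 0.24, unadjusted p 0.0454). The non-classical H2-Q6 was at 1.22 to 3.20 CPM in WT-D and 2.49 to 3.73 CPM in WT-S (0.76, SE 0.31, unadjusted p 0.0350), and the groups overlapped. Tapbp, the tapasin that loads peptides, had a value near 0 (0.02, SE 0.12).

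Summed over the list, class I genes were at 169, 158, 157 and 173 CPM in WT-D and at 207, 214 and 190 CPM in WT-S. Without B2m the sums were 90.7 to 100 CPM in WT-D and 108 to 125 CPM in WT-S, so the separation did not rest on B2m alone. H2 genes are near-identical in places, and a read that fits several was not counted for any, so values of single H2 genes are uncertain. In bulk tissue, more cells that express these genes and more RNA per cell cannot be told apart.

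Interferon-stimulated genes had a similar direction with less separation. Of 18 tested, 16 had a positive log2 fold change (50.6% of all tested genes had one), with a median of 0.21. At an unadjusted p under 0.05 there were 4 of 18, all higher in WT-S (2.05% of all genes), and 0 were called. Ifit3, an antiviral effector, was at 4.08, 4.15, 3.27 and 4.19 CPM in WT-D and at 5.36, 6.12 and 6.48 CPM in WT-S. No library of the groups overlapped (0.61, SE 0.15, unadjusted p 0.00194, adjusted p 0.981). Ifit3 has a near copy, Ifit3b, so its value is uncertain. Bst2, the tetherin that holds budding virus at the membrane, was at 1.69, 1.07, 1.20 and 0.924 CPM against 1.71, 2.16 and 2.63 CPM, with WT-D replicate 1 almost level with WT-S replicate 1 (0.82, SE 0.27, unadjusted p 0.0114). Rtp4 was at 0.934 to 1.46 CPM in WT-D and at 1.63 to 2.16 CPM in WT-S (0.69, SE 0.24), and Isg15, a ubiquitin-like modifier, at 0.534 to 0.870 CPM and 0.854 to 1.37 CPM (0.73, SE 0.31). These are low levels, and Isg15 overlapped between the groups. Stat2, a transcription factor of the response, had a log2 fold change of 0.03 (SE 0.09). The list's summed CPM overlapped between groups, at 119 to 132 in WT-D and 126 to 152 in WT-S. In the fits over all 15 libraries 0 of 18 had an unadjusted p under 0.05, and without WT-S replicate 3, or by the DESeq2 likelihood ratio test, it was 2.

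**Figure D3:**
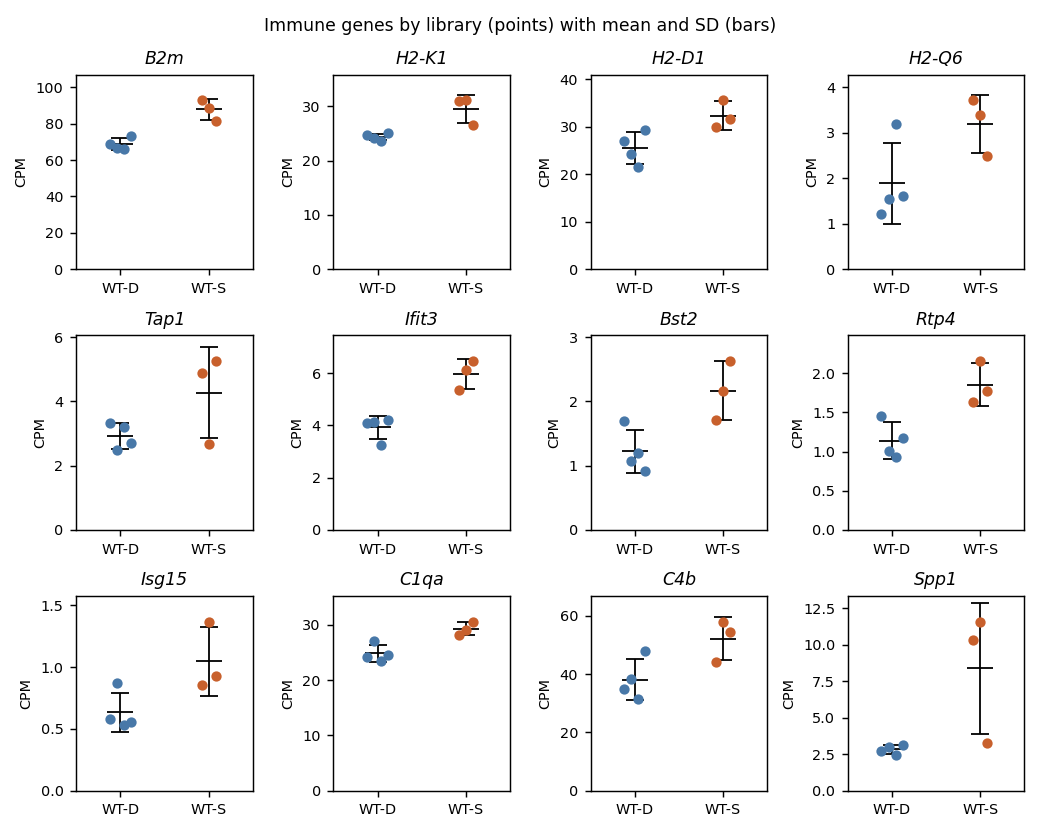
CPM of 12 immune genes in each library (points) with group mean and SD (bars), WT-D in blue and WT-S in orange, each axis starting at 0. B2m, H2-K1, H2-D1, Ifit3, Bst2, Rtp4, C1qa and Spp1 do not overlap between the groups, and Spp1 is above 10 CPM in WT-S replicates 1 and 2.

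The promoters of 3 of these genes are shown because the class I and interferon lists had the same direction, and because an element that interferon-activated factors bind, the interferon-stimulated response element, has a simple core. The 250 bases before the start site are printed 5′ to 3′ on the strand of the gene, from RefSeq on GRCm38.p6, at chr2:122147437-122147686 (plus strand) for B2m, chr19:34583279-34583528 (plus) for Ifit3 and chr8:71537473-71537722 (minus) for Bst2. Capitals mark each match to TTTC, any 2 bases and TTTC, or on the other strand GAAA, any 2 bases and GAAA, and the matches in Bst2 overlap.
B2m: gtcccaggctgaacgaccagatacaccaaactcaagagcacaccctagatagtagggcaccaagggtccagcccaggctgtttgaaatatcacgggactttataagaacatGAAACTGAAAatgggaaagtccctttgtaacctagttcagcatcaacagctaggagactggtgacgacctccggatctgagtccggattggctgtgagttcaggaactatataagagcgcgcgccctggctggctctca
Ifit3: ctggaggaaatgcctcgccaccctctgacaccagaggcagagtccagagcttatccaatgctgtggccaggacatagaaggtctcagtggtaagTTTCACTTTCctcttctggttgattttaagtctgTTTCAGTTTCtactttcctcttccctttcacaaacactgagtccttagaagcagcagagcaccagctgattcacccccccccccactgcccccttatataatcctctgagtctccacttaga
Bst2: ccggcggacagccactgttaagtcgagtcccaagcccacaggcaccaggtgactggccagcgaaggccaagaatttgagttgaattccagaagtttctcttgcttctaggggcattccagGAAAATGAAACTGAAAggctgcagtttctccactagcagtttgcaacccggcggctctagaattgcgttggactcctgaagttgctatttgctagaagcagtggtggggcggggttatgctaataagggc

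B2m held 1 match, Ifit3 and Bst2 held 2 each. Of all 32851 RefSeq promoter windows of this length 2.98% held a match, and of the 14925 windows of tested genes 2.46%. In the interferon list it was 7 of 16 genes with a window (Bst2, Ifit1, Ifit3, Isg15, Oas1a, Rsad2 and Stat2), and in the class I list 2 of 12 (B2m and H2-T23). The promoters printed are thus all of genes with a match. H2-K1, H2-D1, Tap1, H2-Q6 and Rtp4 were not among the genes with a match. Ifit1 and Rsad2 carry the motif, and their log2 fold changes were 0.35 (SE 0.28) and 0.17 (SE 0.32), with overlapping groups. Stat2 also carries it, and its log2 fold change was 0.03 (SE 0.09). Whether genes with the motif differed from the others was not tested.

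Microglial genes were mixed in direction. Of 16 homeostatic microglial genes 10 were higher and 6 lower, with a median log2 fold change of 0.05. C1qa, a chain of the first complement component and a microglial transcript, was at 24.3, 27.0, 23.6 and 24.6 CPM in WT-D and at 28.3, 29.2 and 30.6 CPM in WT-S. Every WT-S library was above every WT-D library (0.24, SE 0.07, unadjusted p 0.00753). Gpr34, a lysophospholipid receptor of resting microglia, was at 15.6 to 25.6 CPM in WT-D and 9.89 to 16.6 CPM in WT-S (-0.48, SE 0.20, unadjusted p 0.0368). The list thus held 1 gene in each direction at that threshold. C4b, which is made by glia and shares sequence with C4a, was at 34.9, 38.3, 31.4 and 48.1 CPM in WT-D and at 44.0, 58.0 and 54.5 CPM in WT-S. WT-D replicate 4 lay within the WT-S range (0.45, SE 0.14, unadjusted p 0.00873). Over 10 tested complement genes the median log2 fold change was 0.26, and 0.12 without WT-S replicate 2.

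Spp1, osteopontin, had the largest positive log2 fold change among genes that met the naming rule. It was at 2.74, 3.01, 2.47 and 3.14 CPM in WT-D, and at 10.3, 11.6 and 3.27 CPM in WT-S. WT-S replicates 1 and 2 stood apart, while replicate 3 was barely above the vehicle libraries. The log2 fold change was 1.56 (SE 0.35, 95% interval 0.78 to 2.33, unadjusted p 0.00113, adjusted p 0.981). Without WT-S replicate 3 it was 1.95, with an adjusted p of 0.00479 by edgeR. Spp1 is expressed by activated microglia and also by cells of the meninges. The summed level of the 10 meningeal markers was 198, 211 and 109 CPM in WT-S replicates 1 to 3 and 90.9 to 152 CPM in WT-D, so replicates 1 and 2 were the highest there too. The part of meningeal tissue in the Spp1 values was not tested. The other 13 tested genes of the disease-associated microglia list ranged from -0.34 for Lpl (SE 0.35) upwards, and the list's median was 0.07.

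Markers of meninges, choroid plexus and blood had positive medians, with 0 genes called, while 5 of 6 neocortex markers were lower in WT-S (median -0.16) and thalamus markers were mixed, with 3 higher and 2 lower. All 10 meningeal markers had positive values (median 0.54), with Islr at 0.56 (SE 0.23, unadjusted p 0.0384) and the lowest of the list at 0.14. Without WT-S replicate 2 the meningeal median was 0.13, with 7 of 10 positive and 0 at an unadjusted p under 0.05. All 8 tested choroid plexus genes had positive values with a median of 0.95, and 3 had an unadjusted p under 0.05, namely Ttr, Cldn2 and Sostdc1. Of all tested genes 50.6% had a positive value, and 2.05% were higher at that threshold. The choroid plexus values rested on WT-S replicate 2. Without that library their median was -0.02, 3 of 8 were positive, 0 had an unadjusted p under 0.05, and the log2 fold change of Ttr went from 3.88 (SE 1.17) to -0.26. Haemoglobin genes and Alas2 summed to 21.7 to 32.3 CPM in WT-D and 34.9 to 41.5 CPM in WT-S, without overlap, and 3 of 5 had an unadjusted p under 0.05 (Hbb-bs, Hba-a1 and Hba-a2). Without WT-S replicate 2 it was 0 of 5, with a median of 0.38 against 0.50. Hba-a1 and Hba-a2 are near-identical copies. The class I sums were highest in WT-S replicate 2, which also had the most choroid plexus, meningeal and haemoglobin reads. Without replicate 2 the class I median was 0.30 with 13 of 14 positive. The part of these tissues in the immune genes was otherwise not tested.

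Neuronal and synaptic genes had small values, with glutamate and GABA synapse genes mostly lower in WT-S. Of 21 tested glutamate receptor and scaffold genes 17 were lower in WT-S, with a median of -0.05 and 0 at an unadjusted p under 0.05. Of 15 GABA synapse genes 12 were lower (median -0.06, 0 at that threshold), with Gad2, an enzyme of GABA synthesis, at 185 to 208 CPM in WT-D and a log2 fold change of -0.12 (SE 0.06, unadjusted p 0.0596). Vesicle release genes had 10 higher and 7 lower, and regulators of spine actin 8 and 8. Over the 4 lists 67 of 69 genes had intervals within 1.5-fold. Among the 22 immediate-early genes, induced by neuronal activity, 15 were lower, with a median of -0.09. Fosl2 alone had an unadjusted p under 0.05, at 57.0, 57.6, 52.0 and 50.5 CPM in WT-D and 49.8, 48.3 and 42.8 CPM in WT-S (-0.21, SE 0.08, unadjusted p 0.0215).

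Glial and vascular lists differed among themselves. The median was 0.01 for 12 homeostatic astrocyte genes and -0.04 for 14 myelin genes. It was 0.16 for 9 reactive astrocyte genes (6 higher) and 0.10 for 15 endothelial and pericyte genes (12 higher). The latter positive medians depended on WT-S replicate 2. Without that library the reactive astrocyte median was 0.05 (5 higher, 4 lower). The endothelial and pericyte median was then -0.00122 (7 higher, 8 lower). Slc1a2, the main glutamate transporter of astrocytes, was at 3365, 3286, 3416 and 3337 CPM in WT-D and at 2947, 3223 and 2913 CPM in WT-S. All WT-S libraries were lower, by a log2 value of -0.15 (SE 0.06, unadjusted p 0.0287). Enpp6, a marker of newly forming oligodendrocytes, had a log2 fold change of -0.35 (SE 0.15, unadjusted p 0.0419). Of the 17 clock genes 14 were lower, with a median of -0.04, and Bhlhe40, a repressor in the clock loop, was at -0.19 (SE 0.08, unadjusted p 0.0406).

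**Figure D4:**
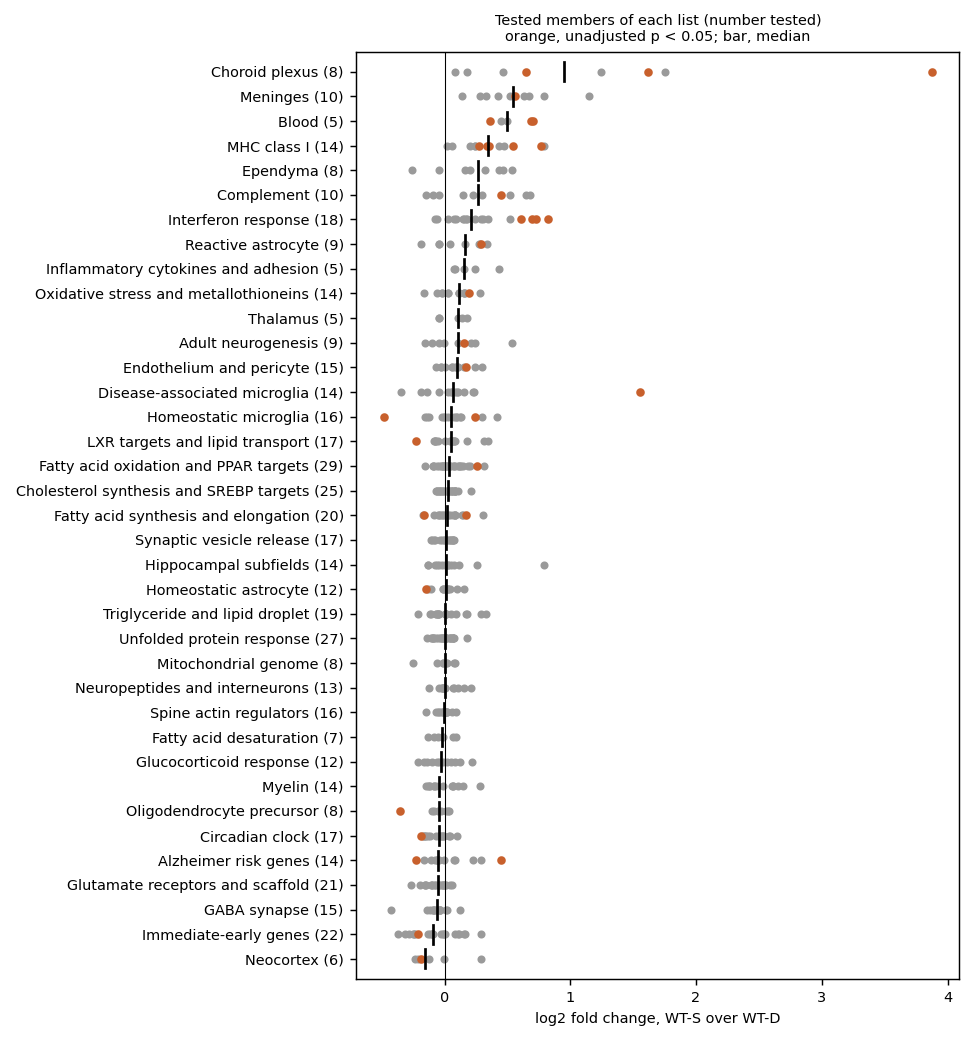
Log2 fold change of WT-S over WT-D for the tested members of each of the 37 gene lists, ordered by median (bar), with members at an unadjusted p under 0.05 in orange. The choroid plexus, meninges, blood and MHC class I lists have the highest medians, at 0.95, 0.54, 0.50 and 0.35, and the 6 lipid lists lie between -0.02 and 0.05.

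Outside the lists, the naming rule took the genes with the largest log2 fold changes among those with an unadjusted p under 0.01, no overlap between groups and a mean level of 1 CPM or above. There were 34 such genes higher and 14 lower in WT-S. After Spp1, the largest positive values were 1.01 for Ak9 (SE 0.28), an adenylate kinase, 0.84 for Cox6a2 (SE 0.25), a subunit of cytochrome oxidase, and 0.83 for Nme2 (SE 0.26), a nucleoside diphosphate kinase. They were followed by Cabcoco1 (0.74, SE 0.19), the transcription factor Osr1 (0.73, SE 0.22), the prostaglandin E synthase Ptges (0.69, SE 0.21), the interferon-induced GTPase Gbp3 (0.64, SE 0.18), the endothelial factor Klf2 (0.63, SE 0.18) and Ifit3. Most were low in expression. Ak9 was at 0.534 to 0.870 CPM in WT-D and 1.16 to 1.78 CPM in WT-S, and Ptges at 1.60 to 2.39 CPM and 2.56 to 3.60 CPM.

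Of the lower genes, Rnf26 had the smallest p-value. It encodes a ubiquitin ligase of the endoplasmic reticulum that acts on the innate immune adaptor STING. Its level was 4.02, 4.28, 3.27 and 3.76 CPM in WT-D and at 2.17, 2.09 and 1.85 CPM in WT-S. The gap between the groups was wider than the range within either (log2 fold change -0.91, SE 0.18, 95% interval -1.30 to -0.52, unadjusted p 0.000396, adjusted p 0.981). The long non-coding RNAs Gm44644 (-1.18, SE 0.28) and C730002L08Rik (-1.10, SE 0.24) were lower too, as was Gm37776 (-0.92, SE 0.29), a transcript of unassigned coding status. Also lower were Sec14l3 (-0.73, SE 0.23), a lipid-transfer protein, Moxd1 (-0.62, SE 0.17), Rbm43 (-0.45, SE 0.11), Zfp933 (-0.39, SE 0.10), the stress-activated kinase Map3k5 (-0.28, SE 0.07) and Arid5b (-0.26, SE 0.08). Rbm43 was at 22.8, 23.7, 27.7 and 24.7 CPM in WT-D and at 15.2, 20.8 and 18.3 CPM in WT-S, and Map3k5 at 35.1 to 37.4 CPM and 27.9 to 32.0 CPM. Each of these groups was apart from the other.

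The genes at low p differed in transcript length. The median length was 3316 nt for all tested genes, 2102 nt for the genes higher in WT-S at an unadjusted p under 0.05 and 5023 nt for those lower. In the same order, their GC content had medians of 49.5%, 51.7% and 45.1%. Spearman's rho of length with log2 fold change was -0.267 over genes, and genes are not independent of each other. The slope of log2 expression on log2 length, relative to the mean of the 7 libraries, was 0.0231, 0.00753, 0.0204 and 0.00238 in WT-D and 0.000264, -0.00821 and -0.0455 in WT-S, where replicate 3 was the steepest. With a length and GC trend removed from each library, 514 genes had an unadjusted p under 0.05 and 61 one under 0.01, and 0 were called. The class I median stayed positive in that fit, with 12 of 14 genes above 0. The medians of the glutamate and GABA synapse lists also stayed negative in that fit. The part of length in the small shifts of synaptic genes, whose median length was 4820 nt, was not otherwise tested.

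The same infusion was given to 3xTg mice, which carry human APP and tau transgenes under the neuronal Thy1.2 element and a mutant presenilin 1 knock-in, with the same age, dose and vehicle (3xTg-S and 3xTg-D, n = 4 each). This pair shares no library with WT-S and WT-D. Of 15530 genes tested, 0 were called by edgeR, 1733 (11.2%) had an unadjusted p under 0.05 and 391 (2.52%) one under 0.01. Of the last, 390 were tested in WT, and 347 (89.0%) had the same sign there. Over all 15302 genes tested in both, 63.7% had the same sign, and Pearson's r was 0.212. The 390 genes were chosen by their 3xTg values, so the sizes in the 2 strains are not compared. Of the 57 genes at that threshold in WT that were tested in 3xTg, 39 (68.4%) had the same sign there, near the share of all genes. With length and GC trends removed it was 35 of 58 (60.3%), beside 56.9% of all genes. The length trend was present in both strains, with a rho of -0.446 in 3xTg. With length and GC trends removed, 130 genes were at that threshold in 3xTg, and of the 128 also tested in WT 104 (81.3%) had the same sign there, beside 56.9% of all genes. Genes at an unadjusted p under 0.01 in both strains were Ndufb11, a subunit of respiratory complex I, Fxyd1, a regulator of the sodium pump, and Arid5b, each with the same sign in both, and named after their values were seen. Ndufb11 had 0.19 (SE 0.05) in WT and 0.27 in 3xTg, Fxyd1 0.32 (SE 0.09) and 0.40, and Arid5b -0.26 (SE 0.08) and -0.31. With the trends removed 0 genes passed in both.

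**Figure D5:**
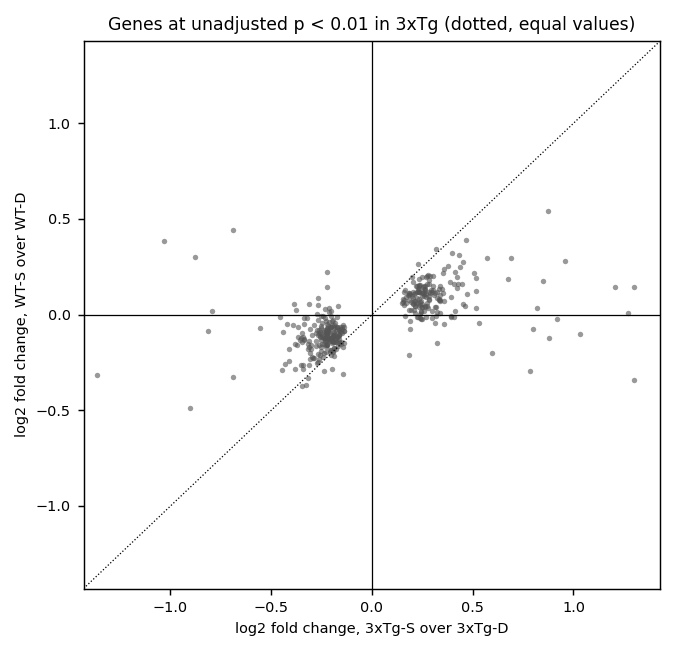
Log2 fold change of inhibitor over vehicle in WT (vertical) against that in 3xTg (horizontal) for the 390 genes with an unadjusted p under 0.01 in 3xTg, with a dotted line of equal values. Of these genes 347 have the same sign in WT. They were chosen by their 3xTg values, so their distance from the dotted line is not a result.

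Whether the effect in WT differed from that in 3xTg was tested as an interaction over 15 libraries. It called 0 of 16262 genes by edgeR (smallest adjusted p 0.400), and 0 by the DESeq2 likelihood ratio test, with 377 (2.32%) at an unadjusted p under 0.05. The smallest p belonged to Rnf26, which had -0.91 in WT and 0.30 (SE 0.14) in 3xTg (unadjusted interaction p 2.46e-05, adjusted p 0.400). The 14 class I genes had a median of -0.10 in 3xTg, with 4 positive and 0 at an unadjusted p under 0.05. B2m was at 98.6, 107, 72.5 and 178 CPM in 3xTg-D and at 117, 110, 107 and 138 CPM in 3xTg-S. The spread among 3xTg-D mice was far wider than among WT mice, and the interaction for B2m had an unadjusted p of 0.267. Of the 14 genes 1, H2-Q6, had an unadjusted interaction p under 0.05 (0.0369). The interferon list had a 3xTg median of -0.18 and 0 of 18 at that threshold. A difference between strains in these lists was therefore not shown. Scd1 had -0.17 (SE 0.08) in 3xTg, with an interaction p of 0.337.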

How the data were processed

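Hippocampal RNA of 7 WT libraries was compared (WT-S, n = 3; WT-D, n = 4), with the 8 libraries of 3xTg-D and 3xTg-S set beside them. The deposited values are raw counts per gene. According to the methods, the authors trimmed reads with Trimmomatic 0.35 and aligned and counted them with STAR 2.5.1b on GRCm38. The strand setting is not given in the sources used here. Rows that name no gene held 24.7 to 27.5% of each of the 15 libraries and were left out. Reads that fit several genes are not in the gene counts, which lowers genes with near copies.

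Genes were filtered with filterByExpr, scaled by TMM and tested with edgeR 4.0.16 (quasi-likelihood test, R 4.3.3). Adjusted p-values are Benjamini-Hochberg values over all genes tested, with 0.05 as the threshold. SEs and 95% intervals come from that fit, and levels are TMM-scaled CPM. DESeq2 1.42.0 was an alternative, beside other scalings, filters, a block and leaving out each library. The script was tested on simulated data. No library pair was a duplicate.

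The labels carry animal numbers. A pair of neighbouring numbers, 1 per treatment, was taken as a block, in which WT-D replicate 1 stands alone. The deviations of paired libraries correlated at 0.199, 0.136 and 0.199, and those of the other pairs at -0.275 to 0.27, the highest being WT-D replicate 1 with WT-S replicate 1. What the numbers share is not stated.

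Named genes were the 10 of largest log2 fold change in each direction at an unadjusted p under 0.01, at least 1 CPM and no overlap. To these were added the higher and the lower gene of smallest p in each of 37 lists. The lists held 547 different genes, 504 of them tested. Other genes were named after their values were seen. Some genes that the rule selects are not reported here. The comparison and the lists were chosen with earlier results of these data known. Promoters are from RefSeq. Lengths and GC content are from the Gencode annotation of the same build.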

Additional observations from a re-analysis of the deposited data

Results flagged for a closer look

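Of 128 sets of 4 WT-D values examined, 8 held a library whose gap to the nearest other exceeded Dixon's 95% critical value, and chance gives about 1 in 20. Replicate 1 held 4 of them. Its CPM was 1.98 for Osr1 (others 1.60 to 1.66), 88.1 for Elovl6 (others 74.5 to 75.5), 13.5 for Abca7 (others 15.7 to 16.1) and 6.81 for Sult1a1 (others 7.82 to 7.96). Replicate 3 was at 3.27 CPM for Ifit3 (others 4.08 to 4.19) and at 92.1 CPM for Lpl (others 160 to 166). Replicate 4 was at 27.5 CPM for Slc17a6 (others 31.1 to 31.8) and at 121 CPM for Rgs5 (others 129 to 130.3).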

How the results depend on the processing

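Of 1350 values of named genes under an alternative, 1329 kept their direction and side of the threshold, and 79 of 90 genes never turned direction. No named gene was called in the reported fit, so keeping that side says little. Those named for no overlap between the groups could hardly turn direction with a library left out. Of 555 list medians, 525 stayed within 1 SD of the reported value, and 16 of 37 lists kept the sign of their median in every alternative run. The cause of the differences below was not tested. Genes called were 2 without a filter on low counts (Spp1 and Ttr) and 0 to 1 with a replicate left out (Spp1 without WT-S replicate 3). Genes at an unadjusted p under 0.01 were 234 without the filter and 39 to 110 with a replicate left out. At an unadjusted p under 0.05 they were 299 by the DESeq2 likelihood ratio test, 1169 without the filter, and 352 to 871 with a replicate left out. The lowest was without WT-D replicate 1, and 871 and 817 were without WT-D replicate 4 and WT-S replicate 1. The interaction called 8 genes without the filter. In 3xTg, calls were 0 to 1 and genes at an unadjusted p under 0.01 were 177 to 522 with a replicate left out, and 130 with the length and GC trend removed, an alternative chosen after seeing the data.

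With neighbouring animal numbers as a replicate block, 103 genes had an unadjusted p under 0.01 and 0 were called.

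Class I genes at an unadjusted p under 0.05 were 0 in the fit over all 15 libraries, 0 with a block added, 3 with the trend removed and 3 to 7 with a replicate left out. Interferon genes were 2 by the DESeq2 test, 0 and 0 over all 15 libraries, and 2 to 6 with a replicate left out.

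Direction turned under at least 1 alternative for 11 genes. With a replicate left out, log2 fold changes ran from -0.054 to 0.041 for Fads3 (positive without WT-D replicate 2, and 0.020 without WT-S replicate 2) and from -0.32 to 0.10 for Scd3 (0.0059 without WT-D replicate 2). They ran from -0.078 to 0.042 for Scd2 and from -0.14 to 0.018 for Scd1, with Scd1, Scd2 and Scd3 highest without WT-S replicate 1. The range was -0.54 to 0.17 for C1s1 (0.11 without WT-D replicate 1), -0.0030 to 0.087 for Olig1, -0.26 to 4.45 for Ttr (lowest without WT-S replicate 2), -0.11 to 0.071 for Tcf7l2 (0.041 without WT-D replicate 1), -0.11 to 0.53 for Foxp2 and -0.71 to 0.11 for mt-Nd3. With the block C1s1 was at 0.072 and Tcf7l2 at 0.034. With the trend removed Olig1 was at -0.037 and Cck at -0.018.

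With 3 and 4 libraries, differences under 1.5-fold in genes below 10 CPM were mostly within the interval.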

Other observations

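Further lists had few genes at low p. Among the 9 tested genes of adult neurogenesis, Hopx, a marker of quiescent neural stem cells, had a log2 fold change of 0.15 (unadjusted p 0.0385, edgeR, adjusted p 0.981). All 5 tested genes of the cytokine and adhesion list had positive values with a median of 0.16 and 0 at an unadjusted p under 0.05. Without WT-S replicate 2 that median was 0.055, with 4 genes higher and 1 lower. Among reactive astrocyte genes Osmr, a cytokine receptor chain, was at 0.29 (unadjusted p 0.0397).

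Some genes varied widely between mice without following the treatment, and were chosen after their values were seen. Gm11942, a processed pseudogene, was at 29.5 CPM in WT-D replicate 1 and 28.8 CPM in WT-S replicate 1, and at 0.185 to 0.996 CPM in the other 5 libraries. Rps3a1, a ribosomal protein gene, was at 46.7 and 44.7 CPM in WT-D replicates 1 and 2 and 89.9 CPM in WT-S replicate 1, and at 1.40 to 3.98 CPM elsewhere. These 3 libraries are also those on 1 side of the first principal component. The processed pseudogene Rps3a3 ran the other way. It was at 30.0, 33.0 and 0.155 CPM in those libraries and at 53.9 to 65.2 CPM elsewhere. Whether reads were assigned to Rps3a1 in some mice and to Rps3a3 in others was not tested.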
